A study of Mus musculus with 9 samples.

Results

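Nuclear-encoded subunit genes of mitochondrial respiratory complexes II, III, IV and V were followed in mouse tissue with laser-induced choroidal neovascularization after 3 intravitreal treatments. The genes were taken by symbol: Sdha to Sdhd for complex II, Cyc1 and the Uqcr genes for complex III, Cox4i1 and the Cox5, Cox6, Cox7 and Cox8 genes for complex IV, and the Atp5 genes for complex V, without Cox4i2, Cox6a2, Atp5s and pseudogenes. This gave 45 of the 24421 symbols in the count tables, of which 4 belonged to complex II, 9 to complex III, 16 to complex IV and 16 to complex V. A filter on low counts left 43 of them among 14054 genes tested. The other 2, Cox7b2 and Cox8c, isoforms known from testis, had 0 counts in all 9 libraries. Each of those zeros allows a level of up to 0.209 to 0.469 CPM, which is 3 counts per library and covers counting error only. The choice by symbol also took in Cox7a2l, which encodes a factor that joins complexes III and IV, and Atp5sl, which is not an ATP synthase subunit and is named Dmac2 in GENCODE.

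Oxidative phosphorylation takes electrons from NADH at complex I and from succinate at complex II, passes them through ubiquinone to complex III and through cytochrome c to oxygen at complex IV, and complex V uses the proton gradient so built to make ATP. Most subunits are encoded in the nucleus, and several, among them Cox6b, Cox7a and Cox8, come as a widespread form and a form of muscle or testis. The retinal pigment epithelium (RPE) leans on oxidative metabolism and passes glucose on to the photoreceptors, while endothelial cells and activated macrophages are known for a high rate of glycolysis.

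Laser-induced choroidal neovascularization (CNV) is a model of neovascular macular degeneration in which a burn breaks the Bruch membrane and choroidal vessels grow through the gap. All animals were male mice aged 8 weeks with 4 burns per eye, and every group received 5 µg of 1 protein at 5 mg/ml into the vitreous. There were 3 groups of 3 libraries: Fc, the constant part of an immunoglobulin given as control; VEGF Trap, a decoy receptor that captures VEGF; and ABTAA, a Tie2-activating antibody to angiopoietin 2, Tie2 being a receptor of endothelial cells. The lesion with a rim of RPE and choroid was isolated from flat mounts by laser capture, so each library is a mixture of cell types in which fewer cells of a type and less RNA per cell cannot be told apart. No strain is given in the labels. Whether replicate libraries came from separate animals is not stated, so the p-values speak only for the spread of these samples, part of which may be technical. The Fc count columns are headed as knockout controls, whereas the sample titles read Fc, and the titles were followed.

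Libraries held 6335805 to 14439835 counts, of which the 45 genes took 0.391% to 0.507%. Levels are given as CPM (counts scaled to library size, with TMM factors), for replicates 1, 2 and 3 in that order, and a difference as a log2 fold change ± SE from edgeR with p-values adjusted over all tested genes and a threshold of 0.05. RPE identity was present in every library: the 12 RPE marker genes summed to 1968 to 3184 CPM, and none was at 0 in all libraries. Other cell types moved with the groups. The 20 skeletal muscle markers summed to 197 to 298 CPM in Fc, 368 to 754 in ABTAA and 350 to 584 in VEGF Trap, and 9 of the 20 rose in ABTAA and 3 in VEGF Trap, with none at 0 throughout. In ABTAA, 5 of 15 endothelial markers rose (sums of 2913 to 3059 CPM against 1916 to 2448 in Fc) and 2 of 14 macrophage and microglia markers fell (1720 to 1969 against 2145 to 2260 CPM). For VEGF Trap, 0 markers of either list were called, and the sums (2248 to 2489 and 2069 to 2265 CPM) overlapped Fc. Over all tested genes, 0.847% were called higher and 0.555% lower in ABTAA, and 0.512% each in VEGF Trap. The 9 melanocyte and pigment markers summed to 2118 to 2422 CPM in Fc, 2788 to 2857 in ABTAA and 2226 to 4023 in VEGF Trap, and 1 of them rose in ABTAA and 2 in VEGF Trap. VEGF Trap 1 stood apart from the other VEGF Trap libraries, with pigment markers at 4023 CPM against 2936 and 2226, 12 photoreceptor markers at 224 against 62.3 and 72.8, and 5 lens markers at 57.1 against 18.5 and 27.0. The part of these cell types in the results below was not tested. A fit with the summed muscle markers as a covariate was run, but that sum separates all treated libraries from Fc. The fit therefore cannot tell muscle from treatment, and nothing about muscle is concluded from a call lost under it.

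Of the 43 tested subunit genes, 1 passed the test in each comparison with Fc, and both encode small subunits of complex IV, cytochrome c oxidase. Cox7c fell in ABTAA, and 0 genes rose. Over all tested genes, 0.555% were called lower and 0.847% higher in that comparison, and the 2.33% of subunit genes called lower rests on 1 gene. Cox6b1 fell in VEGF Trap, again with 0 genes called higher, where 0.512% of all genes were called lower and 0.512% higher. Counts of 0 higher also came from DESeq2 and limma-voom. At an unadjusted p under 0.05, 6 subunit genes were lower and 0 higher in ABTAA (14% and 0%, against 8.23% and 8.64% of all genes), and 4 were lower and 1 higher in VEGF Trap (9.3% and 2.33%, against 7.49% and 7.89%).

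The fold changes of the subunit genes were centred close to 0 in both comparisons, as the plot of all fold changes by complex shows. They ran from -0.66 to 0.62 in ABTAA and from -0.59 to 0.49 in VEGF Trap. The median log2 fold change was -0.08 in ABTAA and -0.05 in VEGF Trap, beside medians over all genes of -0.0029 and 0.0010. In ABTAA 28 of 43 fold changes were below 0, and in VEGF Trap 27 of 43, while 50.4% and 49.9% of all genes were. For 25 of the 43 genes the 95% interval lay within 0.5 of 0 in each comparison, and for 42 within 1. Over all 14054 tested genes these counts were 3612 and 9977 in ABTAA, and 3801 and 10095 in VEGF Trap. ABTAA and Fc libraries did not overlap for 8 genes that were lower in ABTAA (18.6%, against 11.3% of all genes) and 3 that were higher (6.98%, against 11.7%). VEGF Trap and Fc libraries did not overlap for 5 genes lower in VEGF Trap (11.6%, against 10.5%) and 1 higher (2.33%, against 10.4%). Both comparisons use the same Fc libraries, so a gene that is high or low in Fc moves both. The genes with an unadjusted p under 0.05 in both were Cox7c, Cox6b1 and Atp5l.

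**Figure D1:**
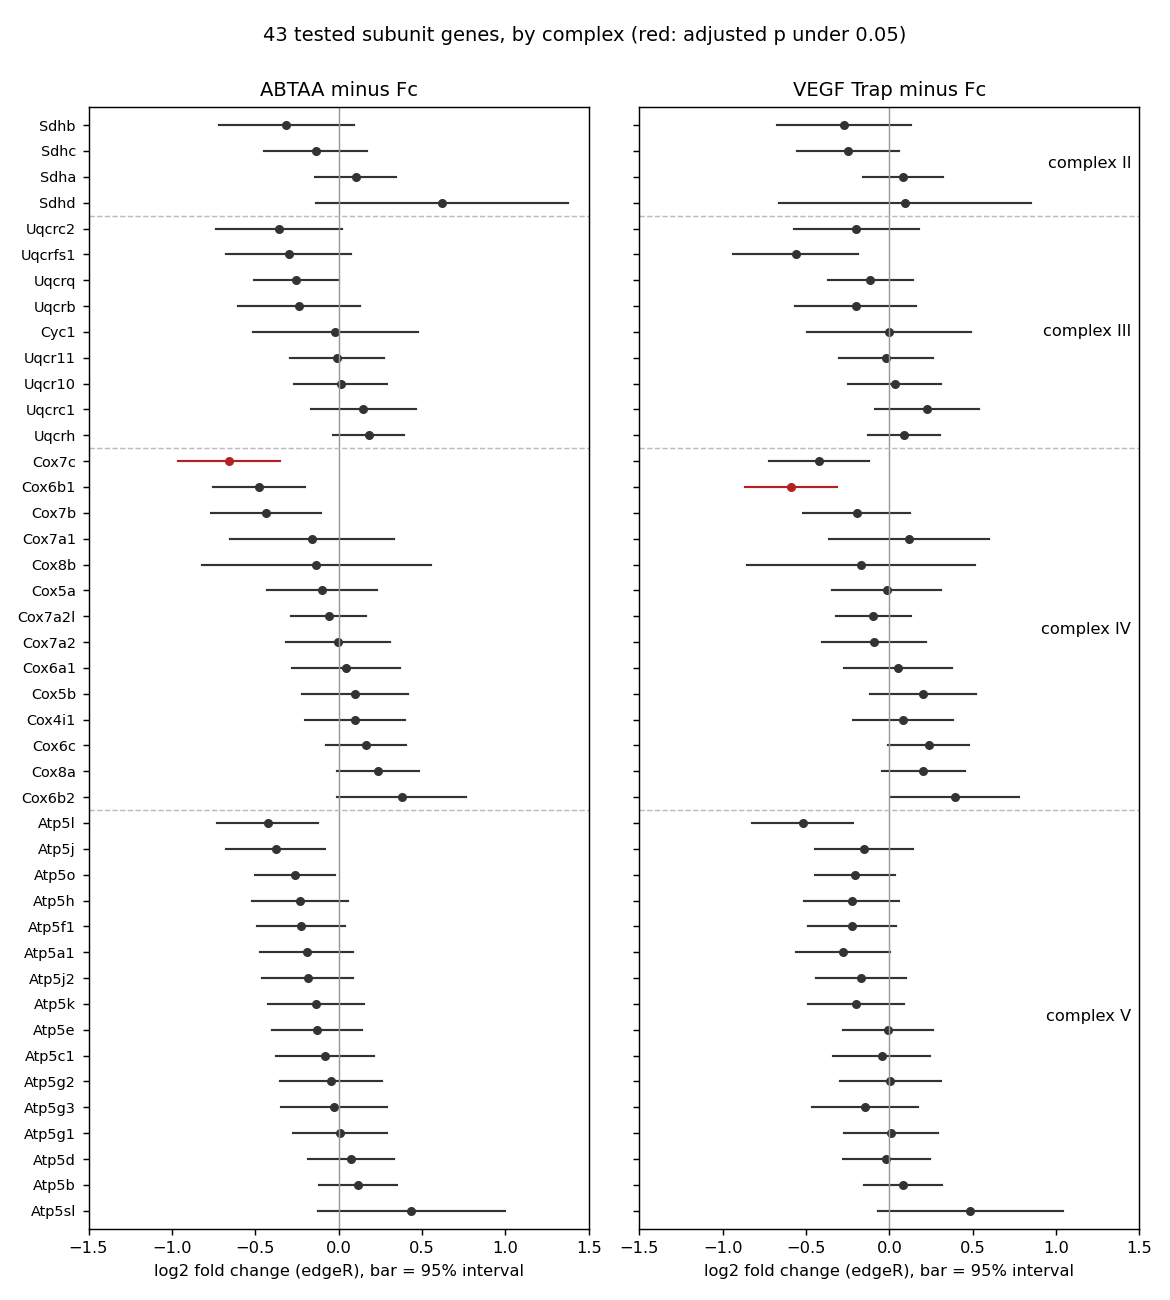
Log2 fold changes from edgeR (x axis, bars are 95% intervals) of the 43 tested subunit genes, grouped by complex, for ABTAA minus Fc (left) and VEGF Trap minus Fc (right), with red for an adjusted p under 0.05. Most intervals cross 0, and the 2 red points are Cox7c at -0.66 on the left and Cox6b1 at -0.59 on the right.

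The stretch upstream of the start of these 3 genes is printed because genes of the respiratory chain are known targets of the nuclear respiratory factors NRF1 and GABPA (an ETS factor also called NRF2) and of YY1. The windows are the 250 bases before the RefSeq start (GRCm38.p6, the build that mm10 names), 5′ to 3′ on the strand of the gene. Capitals mark matches to CCGGAAG (ETS/GABPA) and GCATGCG (NRF1) on either strand.
Atp5l, chr9:44920743-44920992, minus strand: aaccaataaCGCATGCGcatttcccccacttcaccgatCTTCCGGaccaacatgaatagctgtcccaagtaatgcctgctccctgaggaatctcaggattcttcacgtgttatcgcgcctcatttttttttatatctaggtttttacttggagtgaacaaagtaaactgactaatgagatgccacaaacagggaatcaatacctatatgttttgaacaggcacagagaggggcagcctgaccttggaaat
Cox6b1, chr7:30626115-30626364, minus strand: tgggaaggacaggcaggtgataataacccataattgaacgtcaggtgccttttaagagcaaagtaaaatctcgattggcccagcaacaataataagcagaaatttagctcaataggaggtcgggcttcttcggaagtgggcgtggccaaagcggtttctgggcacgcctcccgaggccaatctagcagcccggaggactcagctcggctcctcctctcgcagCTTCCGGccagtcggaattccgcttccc
Cox7c, chr13:86046796-86047045, minus strand: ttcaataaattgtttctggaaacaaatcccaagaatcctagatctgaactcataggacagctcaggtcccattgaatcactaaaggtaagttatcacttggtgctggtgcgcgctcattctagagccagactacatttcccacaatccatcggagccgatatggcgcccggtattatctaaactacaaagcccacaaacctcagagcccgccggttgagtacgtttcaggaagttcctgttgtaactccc
Atp5l held 1 ETS match and a pair of NRF1 matches that overlap, because the motif and its reverse complement share most letters. Cox6b1 held 1 ETS match, close to the start. The letters of the 3 motifs (the third being ATGGCGG, for YY1) were not found in the Cox7c window. GENCODE M21 places the outermost start of Cox6b1 and of Cox7c inside the windows shown, so part of each window can be transcribed.

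Among the 45 genes, 36 had a promoter in the RefSeq table, with 40 windows of 300 bases (250 before to 50 after the start). The ETS motif stood in 30% of the 40 windows and in 8.86% of 32851 windows of all genes, the NRF1 motif in 20% and 3.58%, and the YY1 motif in 10% and 4.05%. At least 1 of the 3 was present in 42.5% and 14.8%. A match is a description of letters and not a measured binding site. Genes with a match lay on both sides of 0. Uqcr11, with an ETS and an NRF1 match, had log2 fold changes of -0.01 in ABTAA and -0.02 in VEGF Trap, and Cox8a, with an ETS match, stood at 0.24 and 0.20.

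Complex II, succinate dehydrogenase, carries out a step of the citric acid cycle and feeds electrons to ubiquinone, and none of its 4 genes passed the test. Its median log2 fold change was -0.02 in ABTAA and -0.08 in VEGF Trap, and its summed level overlapped between all groups (183.6 to 203.5 CPM in Fc, 170.2 to 209.8 in ABTAA and 170.2 to 197.7 in VEGF Trap). Sdha, the flavoprotein with the catalytic site, had log2 fold changes of 0.10 ± 0.11 in ABTAA and 0.08 ± 0.11 in VEGF Trap.

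Sdhb, the iron-sulfur subunit, stood at 50.3, 56.2 and 58.6 CPM in Fc, 31.9, 46.0 and 55.5 in ABTAA, and 37.2, 56.4 and 42.7 in VEGF Trap. Most treated libraries were below Fc, but ABTAA 3 and VEGF Trap 2 fell inside the Fc range. The log2 fold changes were -0.31 ± 0.19 (adjusted p = 0.434, edgeR) and -0.27 ± 0.19 (adjusted p = 0.536). They moved to -0.12 without ABTAA 1 and -0.50 without ABTAA 3, to -0.14 without VEGF Trap 1 and -0.46 without VEGF Trap 2, and to -0.93 and -0.71 with the muscle covariate. Sdhc, a membrane anchor of the complex, stood at 39.1, 49.6 and 51.2 CPM in Fc, 39.9, 46.4 and 40.7 in ABTAA, and 39.0, 35.3 and 43.7 in VEGF Trap. The ABTAA libraries all lay within the Fc range, with a log2 fold change of -0.14 ± 0.14, and that for VEGF Trap was -0.25 ± 0.14 (adjusted p = 0.434, edgeR).

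Sdhd, the second membrane anchor, was the most variable of the 43 genes within groups. Its levels were 8.97, 5.86 and 6.57 CPM in Fc, 9.71, 17.5 and 5.16 in ABTAA, and 9.95, 7.32 and 5.27 in VEGF Trap. A single library, ABTAA 2, stood far above the other 8. The log2 fold change in ABTAA was 0.62 ± 0.35 (adjusted p = 0.404, edgeR), the highest among the subunit genes, and 0.09 without ABTAA 2. In VEGF Trap it was 0.09 ± 0.36, and with the muscle markers as a covariate it was -0.32.

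Complex III, the cytochrome bc1 complex, passes electrons from ubiquinol to cytochrome c and pumps protons. None of its 9 genes passed in either comparison, its median log2 fold change was -0.02 in both, and its summed level was 710.8 to 782.4 CPM in Fc, 748.2 to 772.2 in ABTAA and 683.1 to 782.8 in VEGF Trap. The Rieske iron-sulfur protein Uqcrfs1, which takes the first electron from ubiquinol, had levels of 28.3, 43.5 and 32.8 CPM in Fc, 23.5, 30.0 and 31.6 in ABTAA, and 20.6, 25.0 and 25.4 in VEGF Trap. All VEGF Trap libraries lay below the lowest Fc library, whereas ABTAA and Fc overlapped. Its log2 fold change was -0.56 ± 0.18 in VEGF Trap (adjusted p = 0.127, edgeR) and -0.30 ± 0.18 in ABTAA (adjusted p = 0.420). Without Fc 2, its highest library, these were -0.37 and -0.11.

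The core proteins Uqcrc1 and Uqcrc2, the large matrix-facing pair of complex III, lay on opposite sides of 0. Uqcrc2 stood at 33.4, 42.1 and 42.2 CPM in Fc, 23.4, 35.8 and 32.5 in ABTAA, and 32.2, 29.8 and 41.2 in VEGF Trap, with log2 fold changes of -0.36 ± 0.18 (adjusted p = 0.322, edgeR) and -0.20 ± 0.18. Uqcrc1 stood at 42.5, 50.4 and 42.2 CPM in Fc, 47.1, 49.5 and 53.2 in ABTAA, and 48.3, 45.9 and 64.6 in VEGF Trap, with log2 fold changes of 0.15 ± 0.15 and 0.23 ± 0.15. The groups overlapped for both genes in each comparison. Uqcrq, a small subunit near the cytochrome b core, had levels of 86.8, 101.3 and 87.8 CPM in Fc, 76.7, 74.1 and 80.7 in ABTAA, and 92.8, 85.3 and 76.7 in VEGF Trap. Here the ABTAA libraries were all below Fc and the VEGF Trap libraries overlapped it, at -0.25 ± 0.12 (adjusted p = 0.297, edgeR) and -0.11 ± 0.12. The other 5 genes, Cyc1, Uqcrb, Uqcrh, Uqcr10 and Uqcr11, ran from -0.24 (Uqcrb) to 0.18 (Uqcrh) in ABTAA and from -0.20 (Uqcrb) to 0.09 (Uqcrh) in VEGF Trap. Uqcrh, the acidic hinge protein that helps cytochrome c dock, was higher in each ABTAA library (333.1 to 371.7 CPM) than in any Fc library (301.2 to 329.4), with an adjusted p of 0.386 by edgeR.

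Complex IV, cytochrome c oxidase, hands electrons to oxygen, and its nuclear subunits surround a core made in the mitochondrion. Both genes that passed the test belong to it, yet its median log2 fold change was -0.03 in ABTAA and 0.02 in VEGF Trap. Its summed level overlapped throughout, at 1299.7 to 1482.4 CPM in Fc, 1357.7 to 1487.7 in ABTAA and 1408.2 to 1439.9 in VEGF Trap.

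Cox7c encodes a small membrane-spanning subunit of complex IV and lies on chromosome 13 from 86044816 to 86046904 on the minus strand (GRCm38, GENCODE M21). Its levels were 36.6, 44.4 and 43.2 CPM in Fc, 24.1, 28.3 and 26.6 in ABTAA, and 27.1, 33.9 and 31.9 in VEGF Trap. Every ABTAA library and every VEGF Trap library was below every Fc library. The fall in ABTAA was -0.66 ± 0.14 (95% interval -0.96 to -0.35, adjusted p = 0.0424, edgeR). In VEGF Trap the log2 fold change was -0.42 ± 0.14 (adjusted p = 0.151, edgeR), and the difference between ABTAA and VEGF Trap was -0.23 ± 0.15 (adjusted p = 0.963). The ABTAA call was lost without Fc 1 (adjusted p = 0.0594), Fc 2 (0.165), Fc 3 (0.104), ABTAA 1 (0.109), ABTAA 2 (0.142), ABTAA 3 (0.0689) or VEGF Trap 2 (0.0502), with fold changes of -0.74 to -0.59. It was also lost with an offset for GC content (-0.52, adjusted p = 0.12) and with the muscle markers as a covariate (-0.82, adjusted p = 0.563). The GC content of its transcript was 38.4%, against a median of 51.0% over the subunit genes, and its part in the fold change was not tested beyond that offset.

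The reads of Cox7c cannot be assigned with certainty. Within the last 200 bases of a Cox7c transcript, 100 or more bases aligned at 100% identity to Gm10012, a transcribed processed pseudogene on chromosome 17. That pseudogene has a row of its own in the count tables, and this library kit reads 3′ ends. Gm10012, chosen here after its values were seen, stood at 32.8, 36.3 and 36.6 CPM in Fc, 17.6, 21.9 and 21.1 in ABTAA, and 23.0, 25.4 and 22.7 in VEGF Trap. It followed the order of the groups seen for Cox7c, and no treated library reached the Fc range. Cox7c held 52.8% to 58.4% of the counts of the pair in the 9 libraries. Gm10012 fell by 0.80 on the log2 scale in ABTAA (SE 0.14, adjusted p = 0.0204, edgeR) and had -0.57 ± 0.14 in VEGF Trap (adjusted p = 0.0593). Its ABTAA call was lost without Fc 2, Fc 3, ABTAA 1 or ABTAA 2, with the GC offset and with the muscle covariate (adjusted p = 0.428, edgeR). Summed, the pair fell by 0.72 in ABTAA (SE 0.13, adjusted p = 0.0204, edgeR) and had -0.49 ± 0.13 in VEGF Trap (adjusted p = 0.0707). How the deposited counts split reads between the 2 loci is not given in the sources used here.

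Cox6b1 encodes the subunit on the intermembrane side that links the monomers of the complex IV dimer, and lies on chromosome 7 from 30616861 to 30626151 on the minus strand. No copy of its 3′ end and no overlapping exon were found. Its levels were 91.8, 123.5 and 111.6 CPM in Fc, 74.6, 73.9 and 87.0 in ABTAA, and 69.5, 75.2 and 72.6 in VEGF Trap. All 6 treated libraries were below the lowest Fc library, and the VEGF Trap libraries lay close together. The fall in VEGF Trap was -0.59 ± 0.13 (95% interval -0.86 to -0.31, adjusted p = 0.0460, edgeR). In ABTAA the log2 fold change was -0.48 ± 0.13 (adjusted p = 0.0736, edgeR), and 0.11 ± 0.13 separated ABTAA from VEGF Trap (adjusted p = 0.967). The VEGF Trap call held without ABTAA 3 only. It was lost without Fc 1 (adjusted p = 0.0558), Fc 2 (0.188), Fc 3 (0.113), ABTAA 1 (0.0515), ABTAA 2 (0.0607), VEGF Trap 1 (0.0888), VEGF Trap 2 (0.0787) or VEGF Trap 3 (0.115), with fold changes of -0.70 to -0.49, and with the muscle covariate (-0.57, adjusted p = 0.272), the GC offset (-0.57, 0.0532) and a fit of the compared groups alone (-0.59, 0.0606). In ABTAA the gene passed with DESeq2 (adjusted p = 0.0135), limma-voom (0.0485) and no filter on low counts (0.0312).

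**Figure D2:**
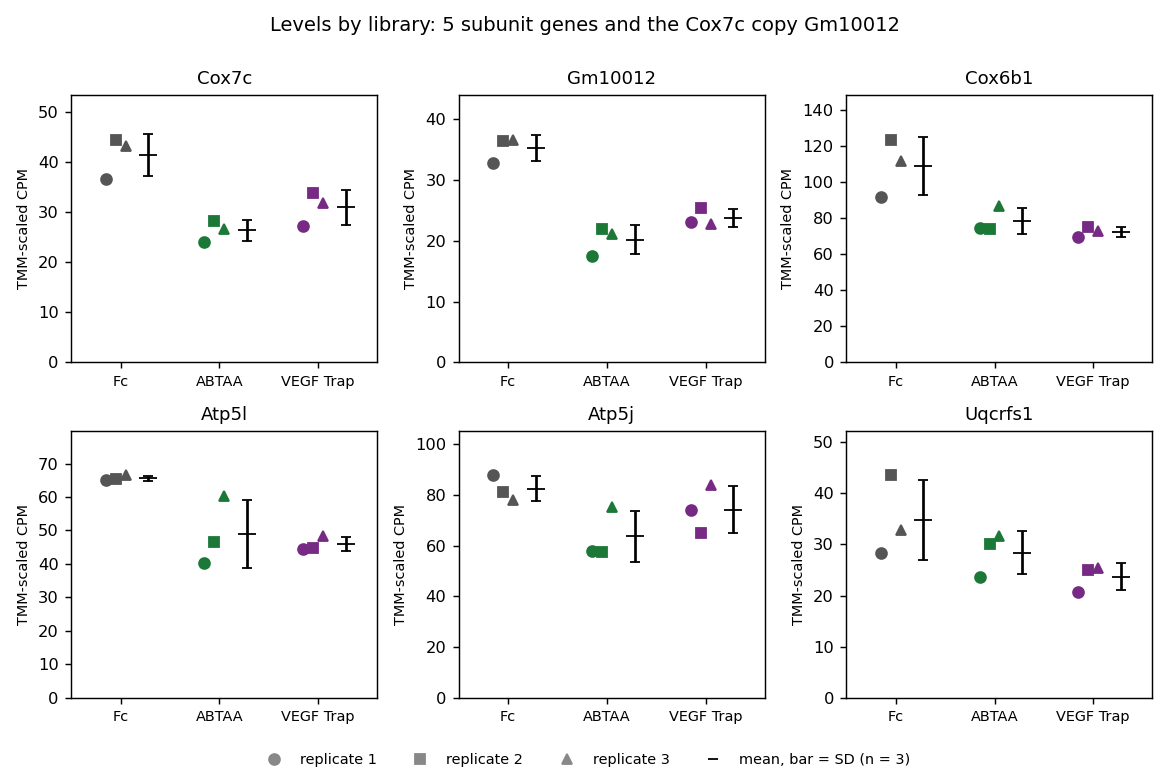
TMM-scaled CPM (y axis) of Cox7c, its 3′ copy Gm10012, Cox6b1, Atp5l, Atp5j and Uqcrfs1 in each of the 9 libraries, coloured by group with 1 marker shape per replicate number, and the mean with SD (n = 3) as bars. The Fc points of Cox7c (36.6 to 44.4) and Cox6b1 (91.8 to 123.5) lie above all treated points, whereas those of Uqcrfs1 overlap with ABTAA.

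The widespread and the tissue forms of 3 complex IV subunits were compared within each gene, as the plot of isoform levels shows. Cox6b2, the testis form of Cox6b, stood at 28.1, 17.8 and 26.6 CPM in Fc, 27.9, 37.1 and 29.1 in ABTAA, and 28.9, 35.5 and 30.8 in VEGF Trap. It lay on the other side of 0 from Cox6b1, with every VEGF Trap library above Fc and ABTAA 1 just inside the Fc range. Its log2 fold changes were 0.38 ± 0.18 in ABTAA (adjusted p = 0.305, edgeR) and 0.39 ± 0.18 in VEGF Trap (adjusted p = 0.306), and with the muscle markers as a covariate they were -0.15 and 0.02.

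Cox7a1, the heart and skeletal muscle form of Cox7a, had levels of 8.13, 8.15 and 10.4 CPM in Fc, 6.61, 9.72 and 7.51 in ABTAA, and 11.4, 9.06 and 8.46 in VEGF Trap. Its widespread partner Cox7a2 stood at 57.6, 78.2 and 80.2 CPM in Fc, 63.1, 76.5 and 75.9 in ABTAA, and 60.2, 74.1 and 68.8 in VEGF Trap. Both overlapped between all groups. The log2 fold changes were -0.16 ± 0.23 in ABTAA and 0.12 ± 0.23 in VEGF Trap for Cox7a1, and -0.01 ± 0.15 and -0.09 ± 0.15 for Cox7a2.

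Cox8b, the muscle form of Cox8, had 8.31, 9.25 and 7.71 CPM in Fc, 4.85, 12.6 and 5.32 in ABTAA, and 5.64, 9.06 and 7.76 in VEGF Trap. Again ABTAA 2 stood above all other libraries, while ABTAA 1 and 3 were the lowest. Its log2 fold changes were -0.13 ± 0.32 in ABTAA and -0.17 ± 0.32 in VEGF Trap, and without ABTAA 2 the first was -0.73. ABTAA 2 also had the highest muscle marker sum, 754 CPM. Cox8a, the widespread form, had 139.4, 154.8 and 176.3 CPM in Fc, 176.5, 182.6 and 195.4 in ABTAA, and 175.4, 167.7 and 199.5 in VEGF Trap. The ABTAA libraries were above Fc by a narrow margin, and the log2 fold changes were 0.24 ± 0.12 (adjusted p = 0.325, edgeR) and 0.20 ± 0.12 (adjusted p = 0.432). Beside the muscle markers that rose, neither of the muscle forms Cox7a1 and Cox8b passed the test in either treatment. Cox6a2, another muscle form that the choice by symbol left out, had a log2 fold change of 0.56 ± 0.68 in ABTAA. Cox6a2 is itself among the muscle markers, so it is not separate from them.

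**Figure D3:**
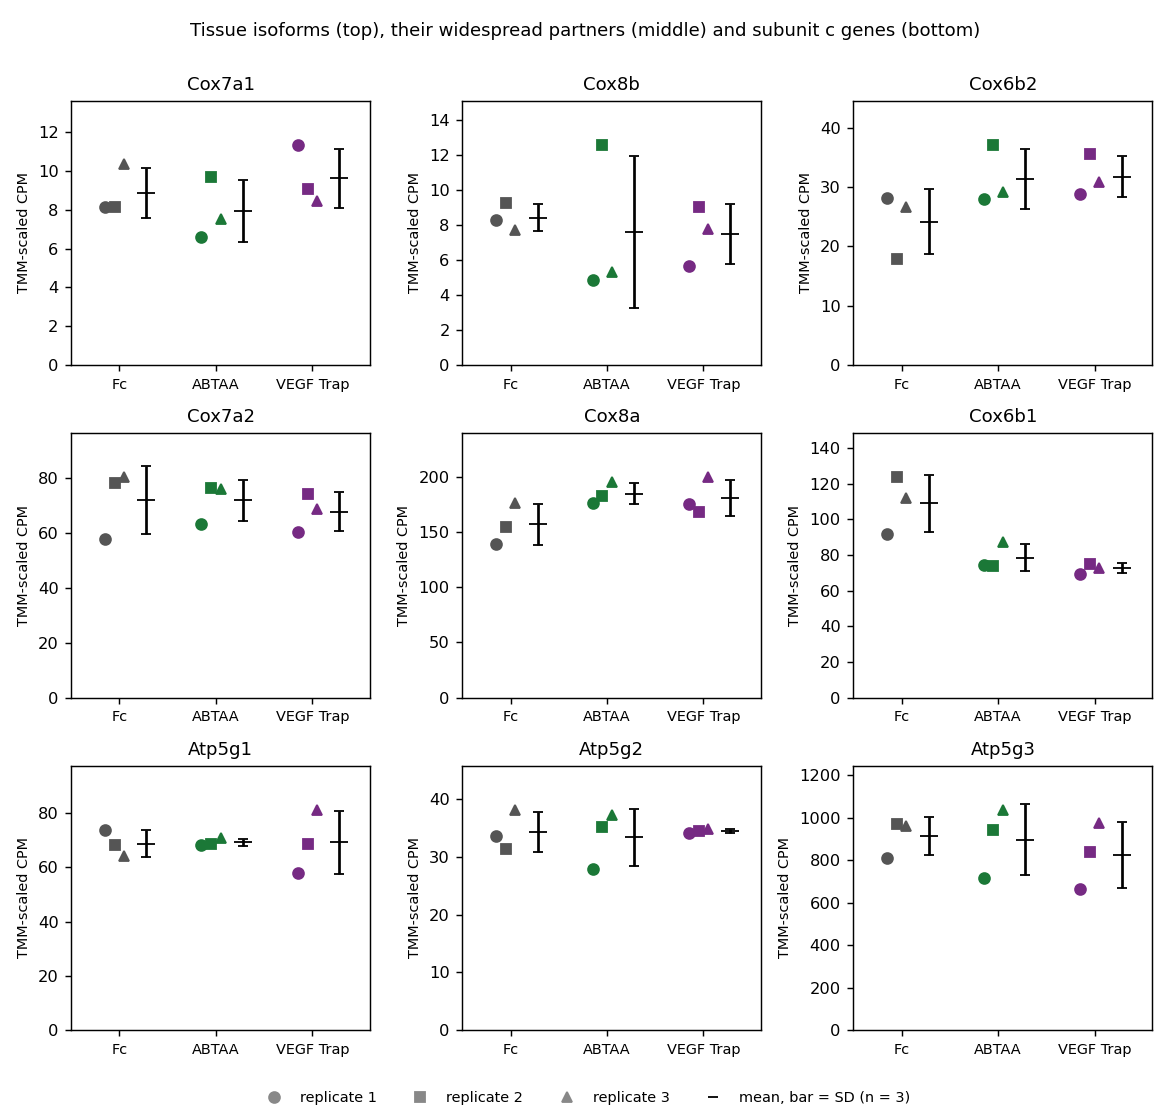
TMM-scaled CPM (y axis) of tissue forms of complex IV subunits (top row: Cox7a1, Cox8b, Cox6b2), their widespread partners (middle row: Cox7a2, Cox8a, Cox6b1) and the subunit c genes of complex V (bottom row: Atp5g1 to Atp5g3) by library, with group colours, replicate shapes, and mean with SD (n = 3). Cox6b1 is the panel where the treated points (69.5 to 87.0) are separate from Fc (91.8 to 123.5) in both comparisons, and Cox8b in ABTAA 2 (12.6) stands apart from its group.

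The other 7 tested genes of complex IV, Cox4i1, Cox5a, Cox5b, Cox6a1, Cox6c, Cox7a2l and Cox7b, ran from -0.44 (Cox7b) to 0.16 (Cox6c) in ABTAA and from -0.20 (Cox7b) to 0.24 (Cox6c) in VEGF Trap. Cox7b, a small X-linked subunit, stood at 32.0, 45.3 and 43.1 CPM in Fc, 29.6, 28.7 and 31.0 in ABTAA, and 35.2, 31.1 and 39.2 in VEGF Trap. The ABTAA libraries were below all Fc libraries and all VEGF Trap libraries, but the log2 fold change from Fc, -0.44 ± 0.15, did not pass (adjusted p = 0.159, edgeR). Counts of Cox4i1 and Cox7a2l were even numbers in all 9 libraries, and among all 14054 tested genes 2188 had counts that share a divisor above 1, which double entry of reads would give. Where reads were entered doubly, the counting error exceeds what the counts show.

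Complex V, the ATP synthase, couples proton flow through a membrane rotor to ATP synthesis in the matrix head. None of its 16 genes passed in either comparison, but 12 of 16 were below 0 in each, and the median log2 fold change was -0.13 in ABTAA and -0.15 in VEGF Trap, the lowest of the 4 complexes in both. Summed over the complex, levels overlapped (2219 to 2429 CPM in Fc, 1974 to 2344 in ABTAA and 1883 to 2338 in VEGF Trap). The largest share of that sum came from Atp5g3, and without it, a sum taken after the values were seen, Fc had 1382 to 1461 CPM, ABTAA 1260 to 1308 and VEGF Trap 1219 to 1365. In that sum the Fc libraries lay above all treated libraries. With Atp5g3 left out of the sum over all tested subunit genes, the groups overlapped. Those sums were 3601 to 3875 CPM in Fc, 3536 to 3747 in ABTAA and 3481 to 3771 in VEGF Trap.

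Atp5l, subunit g of the membrane part, which takes part in dimer formation, had levels of 65.1, 65.3 and 66.5 CPM in Fc, 40.3, 46.6 and 60.2 in ABTAA, and 44.4, 44.8 and 48.2 in VEGF Trap. The Fc libraries were almost equal and above all treated libraries, and ABTAA 3 came nearest to them. Its log2 fold changes were -0.52 ± 0.14 in VEGF Trap (adjusted p = 0.0834, edgeR) and -0.43 ± 0.14 in ABTAA (adjusted p = 0.138), and it passed in VEGF Trap with DESeq2 (adjusted p = 0.0178) and with no filter (0.0294). The gene lies on chromosome 9 from 44912557 to 44920742 on the minus strand, overlaps an exon of the antisense gene Gm30934, and has 2 processed pseudogene copies of its 3′ end, on chromosomes X and 14, which have no row in the tables.

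Atp5j encodes coupling factor 6 of the peripheral stalk. It had 87.7, 81.3 and 78.1 CPM in Fc, 57.7, 57.6 and 75.4 in ABTAA, and 74.0, 64.9 and 83.7 in VEGF Trap. ABTAA libraries lay below Fc, with ABTAA 3 close to it, and VEGF Trap overlapped Fc. The log2 fold change was -0.38 ± 0.14 in ABTAA (adjusted p = 0.179, edgeR) and -0.15 ± 0.14 in VEGF Trap. Gabpa, itself the ETS factor named above, overlaps Atp5j on the other strand, and whether the counting used strand is not given in the sources used here. Exons on the other strand also overlap Atp5a1 (Haus1) and Uqcrc2 (Pdzd9), as well as Atp5d, Atp5f1, Atp5o, Cox4i1, Cox5a, Cox6c and Uqcrb. Atp5a1, the alpha subunit of the catalytic head, had 178.0, 196.8 and 191.4 CPM in Fc, 136.5, 190.2 and 169.0 in ABTAA, and 135.3, 171.3 and 160.4 in VEGF Trap. Its VEGF Trap libraries were all below Fc and ABTAA 2 was inside the Fc range, with log2 fold changes of -0.28 ± 0.13 (adjusted p = 0.328, edgeR) and -0.19 ± 0.13. The ABTAA value was -0.073 without ABTAA 1 and -0.30 without ABTAA 2, and with the muscle covariate the values were -0.51 and -0.53.

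**Figure D4:**
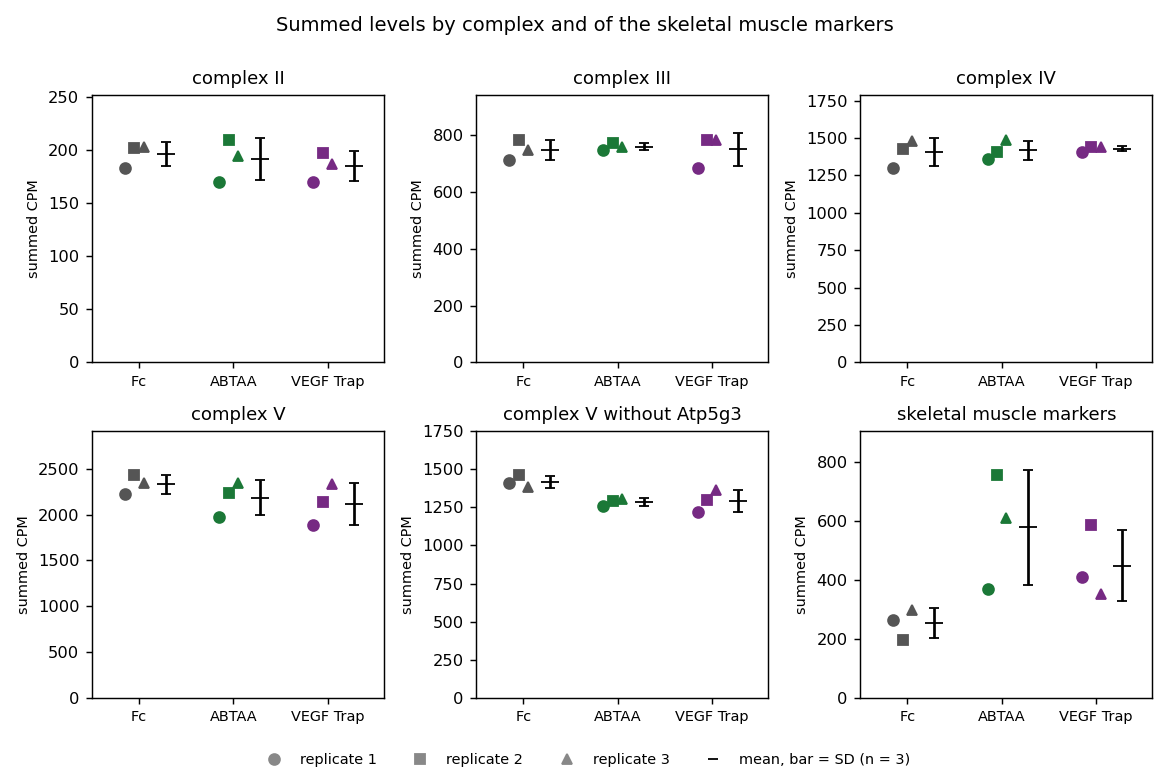
Summed TMM-scaled CPM (y axis) of the genes of complexes II, III, IV and V, of complex V without Atp5g3, and of the 20 skeletal muscle markers, by library with group colours, replicate shapes, and mean with SD (n = 3). Complexes II to V overlap between groups. Complex V without Atp5g3, a sum taken after the values were seen, is 1382 to 1461 in Fc and at most 1365 in treated libraries. The muscle markers are at most 298 in Fc and at least 350 in treated libraries.

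Subunit c, which forms the rotor ring, is encoded by Atp5g1, Atp5g2 and Atp5g3, whose mature proteins are the same. Atp5g1 stood at 74.0, 68.2 and 64.2 CPM in Fc, 68.2, 68.6 and 70.9 in ABTAA, and 58.0, 68.8 and 81.2 in VEGF Trap. Atp5g2 stood at 33.6, 31.3 and 38.2 CPM in Fc, 27.9, 35.2 and 37.2 in ABTAA, and 34.2, 34.6 and 34.9 in VEGF Trap. Atp5g3 stood at 812.0, 967.4 and 960.2 CPM in Fc, 714.5, 939.6 and 1036 in ABTAA, and 663.7, 839.8 and 973.2 in VEGF Trap. For all 3 genes the groups overlapped in every comparison, and replicate 1 of each group was the lowest of its group for Atp5g3. The log2 fold changes in ABTAA and VEGF Trap were 0.01 and 0.01 for Atp5g1, -0.04 and 0.01 for Atp5g2, and -0.03 and -0.15 for Atp5g3, with SE of 0.13 to 0.15. These are smaller than their errors, and the signs of all but Atp5g3 in VEGF Trap turned under at least 1 other setting or omission of a library. Atp5g1 and Atp5g2 have near-identical copies of their 3′ ends elsewhere, for Atp5g1 within Pdzd2 and Gm16702, which have rows of their own.

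The other 10 genes named Atp5 include the beta, gamma, delta and epsilon subunits and the stalk protein Atp5o (OSCP). Their log2 fold changes ran from -0.26 (Atp5o) to 0.44 (Atp5sl) in ABTAA and from -0.23 (Atp5h) to 0.49 (Atp5sl) in VEGF Trap. Atp5o had an adjusted p of 0.250 in ABTAA by edgeR, at -0.26 ± 0.11. Atp5b, the catalytic beta subunit, was higher in each ABTAA library (113.7 to 120.6 CPM) than in Fc (100.7 to 112.6), at 0.12 ± 0.11 (adjusted p = 0.646, edgeR). Atp5f1 (subunit b of the stator) and Atp5h (subunit d) were lower in each ABTAA library than in Fc, at -0.23 ± 0.12 and -0.23 ± 0.14, and did not pass.

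Summed over all 43 genes, levels overlapped between the groups, at 4413 to 4842 CPM in Fc, 4250 to 4783 in ABTAA and 4144 to 4744 in VEGF Trap. The replicate 1 library was the lowest of its group in each case. The within-group SD on the log2 scale had a median of 0.17 over the genes and ran from 0.08 to 0.60. Across the 43 genes, log2 fold change had a Spearman correlation with transcript GC content of 0.33 in ABTAA and 0.32 in VEGF Trap, beside 0.28 and 0.23 across 13933 tested genes with a known transcript. Genes of a library share its depth and base composition, and these are descriptions.

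Between ABTAA and VEGF Trap the subunit genes showed no call. By edgeR 0 of 43 passed and 0 had an unadjusted p under 0.05, DESeq2 and limma-voom called 0, and over all genes 0% were called while 2.42% were lower and 2.64% higher at an unadjusted p under 0.05. The median log2 difference was -0.01, and the values ran from -0.28 (Cox7a1) to 0.53 (Sdhd). The 95% interval lay within 0.5 of 0 for 33 genes and within 1 for 42, which does not show that the treatments act alike. Only Cox7b had groups that did not overlap, lower in ABTAA (2.33%, against 4.74% of all genes), and 0 genes were higher without overlap (against 5.14%), at -0.24 ± 0.16 (adjusted p = 0.963, edgeR).

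Genes that work with complexes II to V were read in the same way, against the background of all genes given above: 0.555% called lower and 0.847% higher in ABTAA, and 0.512% each in VEGF Trap. Of 37 tested Nduf genes listed by symbol for complex I, 2 fell in ABTAA and 0 rose. The 2 were Ndufb3 (-0.65 ± 0.14, adjusted p = 0.0382, edgeR) and Ndufa10 (-0.64 ± 0.15, adjusted p = 0.0473). In VEGF Trap Ndufb3 fell (-0.69 ± 0.14, adjusted p = 0.0333, edgeR), Ndufa10 had -0.53 ± 0.15 (adjusted p = 0.0848), and 0 rose. Each of these counts rests on 1 or 2 genes. Both ABTAA calls were lost without Fc 1, Fc 2, ABTAA 1, ABTAA 2 or VEGF Trap 2, with the GC offset and with the muscle covariate, that of Ndufb3 also without Fc 3, and that of Ndufa10 also without ABTAA 3 or VEGF Trap 3. The VEGF Trap call of Ndufb3 was lost without any 1 Fc or VEGF Trap library, with the GC offset and with the muscle covariate. The median over this Nduf list was -0.10 in ABTAA and -0.06 in VEGF Trap, next to the -0.08 and -0.05 of the 43 subunit genes. Of 35 assembly factors, 0 passed in either comparison by edgeR, with 5 lower and 0 higher in ABTAA and 4 lower and 1 higher in VEGF Trap at an unadjusted p under 0.05, where 8.23% of all genes were lower and 8.64% higher in ABTAA and 7.49% and 7.89% in VEGF Trap. Coa5, a factor needed to build complex IV, had -0.48 ± 0.13 in ABTAA (adjusted p = 0.0711, edgeR), and the copper chaperone Cox17 had -0.41 ± 0.14 in VEGF Trap (adjusted p = 0.166). In ABTAA Coa5 passed with DESeq2 (adjusted p = 0.0144) and with no filter (0.0493).

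Lrpprc, which stabilizes mitochondrial mRNAs together with Slirp, fell in both comparisons, with log2 fold changes of -1.13 ± 0.19 in ABTAA (adjusted p = 0.0195, edgeR) and -1.27 ± 0.19 in VEGF Trap (adjusted p = 0.0124). It stood at 49.9, 54.3 and 42.0 CPM in Fc, 17.7, 19.2 and 30.8 in ABTAA, and 17.6, 22.9 and 20.0 in VEGF Trap, with no overlap between Fc and treated libraries. The ABTAA call was lost without Fc 2 (adjusted p = 0.101, edgeR), ABTAA 1 (0.0604) or ABTAA 2 (0.118), the VEGF Trap call without Fc 2 (0.0849), and both with the muscle covariate (0.556 and 0.141). By edgeR, Lrpprc was the only 1 of 14 tested regulators of mitochondrial gene expression to pass in either comparison. At an unadjusted p under 0.05, 5 of the 14 were lower and 0 higher in ABTAA, against 8.23% and 8.64% of all genes. For VEGF Trap these counts were 3 and 0, against 7.49% and 7.89%. Slirp had -0.59 ± 0.15 in ABTAA (adjusted p = 0.0589, edgeR) and -0.39 ± 0.14 in VEGF Trap (adjusted p = 0.198). In ABTAA Slirp passed with DESeq2 (adjusted p = 0.0109), limma-voom (0.0432), no filter (0.0262) and a common divisor (0.0459), and without VEGF Trap 1 (0.0486). Of 19 outer membrane, import and chaperone genes, the import receptor Tomm70a and the matrix chaperone Hspd1 fell in both comparisons, to log2 fold changes of -0.60 and -0.55 in ABTAA (adjusted p = 0.0424 and 0.0497, edgeR) and -0.60 and -0.59 in VEGF Trap (adjusted p = 0.0456 and 0.0460), and 0 rose. In ABTAA both calls were lost without any 1 Fc library and without ABTAA 1, ABTAA 2 or VEGF Trap 2, that of Tomm70a also without ABTAA 3, and that of Hspd1 also without VEGF Trap 3 and with RLE scaling. In VEGF Trap both were lost without any 1 Fc or VEGF Trap library, without ABTAA 2 and in a fit of the compared groups alone, and that of Tomm70a also without ABTAA 1. All 4 calls were lost with the GC offset and with the muscle covariate.

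None of 18 genes of the citric acid cycle and the pyruvate dehydrogenase complex passed by edgeR. At an unadjusted p under 0.05, 2 were lower and 2 higher in ABTAA, and 0 lower and 2 higher in VEGF Trap. The background was again 8.23% and 8.64%, and 7.49% and 7.89%, of all genes. None of 10 electron carriers, accessory genes and further subunit genes passed either, with 1 lower and 0 higher in each comparison at an unadjusted p under 0.05. Among them are Cox4i2, Cox6a2, Usmg5 and 2010107E04Rik, subunit genes that the choice by symbol left out. Of 82 cytosolic ribosomal protein genes, which make up a machine outside the mitochondrion, 3 fell in ABTAA and 2 in VEGF Trap and 0 rose, where 0.555% and 0.512% of all genes were called lower, with medians of -0.08 in both.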

How the data were processed

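RNA of 9 laser-captured RPE and choroid samples (3 per group) was read from 3′ ends with a QuantSeq kit, per the labels' protocols. The tables the authors deposited hold raw counts by gene symbol. Per the submitters' processing notes, Bowtie2 and edgeR were used with mm10. Not given in the sources used here are tool versions, gene annotation, how reads were counted, whether strand was used and how multi-mapping reads were handled. All 24421 symbols were read from each table, with 0 unnamed rows.

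After filterByExpr and TMM scaling, the quasi-likelihood test of edgeR 4.0.16 (R 4.3.3) was run on all 9 libraries in 1 model with 6 residual degrees of freedom, with Benjamini-Hochberg adjustment over 14054 genes and a threshold of 0.05. The biological coefficient of variation was 17.9%. Total counts of 6335805 to 14439835 put 3 counts at 0.209 to 0.469 CPM. Libraries of 1 group differed beyond counting noise (8.12 to 19.3 chi-square units per degree of freedom), and each was kept as a replicate. The script was tested on simulated data.

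The members and all lists were chosen with earlier results of these data known. Genes given by library are those past the threshold in any comparison, the 2 smallest p-values of each complex in each comparison with Fc, and the isoform genes. Cox7b, Lrpprc and Gm10012 were added after their values were seen. The 13 mitochondrially encoded subunits were not analysed here. Photoreceptor, lens, brown fat and pigment cell lists were checked as other tissue: 0, 0, 0 and 1 of 12, 5, 3 and 9 tested genes were called in ABTAA, and 0, 0, 0 and 2 in VEGF Trap. The brown fat list includes the subunit genes Cox7a1 and Cox8b, so it is not a separate check.

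Coordinates are from GENCODE M21 (GRCm38), and all 45 members matched. With BLAST+ 2.17.0 transcript ends of 200 bases were searched, and 100 or more bases aligned with 95% identity or better were called a copy, which 10 members have. Promoters are from RefSeq (GRCm38.p6). Alternatives were DESeq2 1.42.0, limma-voom (limma 3.58.1) with quality weights, RLE scaling, library totals, a filter of 10 counts in 6 libraries, no filter, the compared groups alone, the replicate number as a block, counts divided by a common divisor, the muscle marker total as a covariate, a GC offset, the omission of each library, and, chosen after seeing the data, Cox7c and Gm10012 summed.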

Additional observations from a re-analysis of the deposited data

How the results depend on the processing

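The count of subunit genes called lower rests on 1 gene per comparison and moved with most choices. In ABTAA it was 2 with DESeq2, 2 with limma-voom, 2 with no filter, 0 with the muscle covariate, 0 with the GC offset, and 0 to 1 when a library was omitted (1 without VEGF Trap 1 or VEGF Trap 3). In VEGF Trap it was 2 with DESeq2, 3 with no filter, 0 for the compared groups alone, 0 with the muscle covariate, 0 with the GC offset, and 0 to 1 when a library was omitted (1 without ABTAA 3). In these alternatives the count called higher was 0 in all 3 comparisons. Cox7c in ABTAA and Cox6b1 in VEGF Trap kept their sign in 21 of 21 alternatives and passed in 12 and 10. The 12 of Cox7c include the fit in which its counts were replaced by the sum with Gm10012. Over all genes, calls in ABTAA and VEGF Trap (197 and 144) were 750 and 651 with DESeq2, 411 and 242 with limma-voom, 684 and 616 with no filter, 301 and 130 for the compared groups, 53 and 97 with the GC offset, 0 and 1 with the muscle covariate, 0 to 373 and 7 to 144 when a library was omitted, 284 and 249 with counts divided by a common divisor, and in VEGF Trap 221 with library totals. The median log2 fold change of the subunit genes (-0.083 in ABTAA, -0.047 in VEGF Trap) ran from -0.158 with the muscle covariate to -0.028 without ABTAA 1 in ABTAA (-0.130 without Fc 1), and from -0.131 with library totals to -0.037 with the replicate block in VEGF Trap (-0.107 without Fc 1). Between the treatments it ran from -0.072 without VEGF Trap 1 to 0.060 without ABTAA 1. Between ABTAA and VEGF Trap, where edgeR called 0 genes, 5 were called with DESeq2, 30 with no filter and 1 with the replicate block.

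After removal of group means, same-numbered libraries correlated by 0.013 to 0.112, all positive, and differently numbered ones by -0.092 to 0.037. These ranges overlap, and ABTAA 2 correlated more with Fc 3 (0.035) than with Fc 2 (0.022). The labels do not say that a number pairs libraries, so the main fit had no block. What same-numbered libraries share was not tested. With the replicate block 334 and 300 genes were called, against 197 and 144 without it. The subunit genes called lower stayed at 1 and 1, and Cox7a2 in ABTAA turned to 0.0040. Over the 43 genes, signs turned in at least 1 of these settings for 10 in ABTAA and 13 in VEGF Trap, and when a library was omitted for 12 and 14, all of log2 fold changes that did not pass. Library totals moved the median of all genes to -0.048 in ABTAA and -0.079 in VEGF Trap, a shift that all genes share. Among the 20 genes given by library, other signs that turned were in ABTAA Atp5g1 with library totals (-0.035) and Cox6b2 with the muscle covariate (-0.15), and in VEGF Trap Atp5g1 (-0.067) and Atp5g2 (-0.075) with library totals, Atp5g2 with the GC offset (-0.20), and Atp5g2 (-0.22), Cox7a1 (-0.17) and Sdhd (-0.32) with the muscle covariate. When a library was omitted, signs among these 20 turned in ABTAA for Atp5g1 (-0.046 to 0.062), Atp5g2 (-0.12 to 0.071), Atp5g3 (-0.14 to 0.11), Cox7a2 (-0.14 to 0.078) and Cox8b (-0.73 to 0.12), and in VEGF Trap for Atp5g1 (-0.11 to 0.13), Atp5g2 (-0.057 to 0.083), Cox7a1 (-0.013 to 0.24), Cox8b (-0.34 to 0.013) and Sdhd (-0.15 to 0.29). Omitting a library leaves fewer samples, and the muscle sum separated Fc from treated libraries. For the other choices the cause was not tested. At 3 libraries per group the median SE of a subunit gene was 0.14 on the log2 scale, which limits what could be called.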
